A study of Mus musculus with 16 samples.

Results

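The genes described here are 9 transcription factors that CD4+ T cells use to take up and keep a helper lineage: Irf4, Batf, Tbx21, Eomes, Gata3, Maf, Rora, Bcl6 and Prdm1. They were found by gene symbol in the deposited array table. Each is read by 1 probe set, and all 9 are among the 16475 genes measured. No filter on low values was set, so every member entered every test.

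CD4+ cells from lymph nodes and spleens of female C57BL/6 mice, 6 to 12 weeks old, were sorted by GFP, which marks Foxp3 in the knock-in allele that all these mice carry. This gave TFoxp3+ cells, the regulatory T cells, and TFoxp3- cells, all other CD4+ T cells together. Both were measured ex vivo and after 36 h of culture. The culture had plate-bound anti-CD3 and anti-CD28 (antibody at 5 µg/ml) and human IL-2 (100 U/ml). Both states had cycloheximide, at 100 µg/ml, to stop ribosomes from leaving the mRNA, but at different times. Ex vivo cells met it in every buffer and medium, whereas activated cells were given it only when their culture ended. This timing goes with state, and its part in the changes with activation was not tested. Cytosolic mRNA and polysome-associated mRNA, with 3 or more ribosomes, were put on Affymetrix arrays, which gave 8 groups of 2 arrays. The ex vivo arrays are numbered 1 to 8 here, those of activated TFoxp3- cells 9 to 12 and those of activated TFoxp3+ cells 13 to 16, and the array names form a separate series for each of these 3 blocks. In activated cells, subset and array series therefore cannot be told apart, and neither can state and array series. RNA of 2 experiments was pooled for each ex vivo sample, and the duplicates are called biological. The p-values measure the spread between these arrays, whose number limits precision.

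Helper T cells are told apart by the cytokines they make, and a small set of transcription factors sets up each programme. T-bet, the product of Tbx21, drives the Th1 programme, Gata3 the Th2 programme, the ROR factors the Th17 programme and Bcl6 that of follicular helper cells. Irf4 and Batf are induced by signals through the T cell receptor and open many of the sites that the lineage factors then use. Regulatory T cells borrow the same factors, and Irf4, Batf and Prdm1 are known for their part in effector regulatory T cells.

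All levels are RMA log2 intensities, so that 1 unit is a 2-fold change, and levels of different genes are not compared. The sort was borne out by the arrays. Foxp3 lay between 9.42 and 10.76 in the 8 TFoxp3+ arrays and between 3.74 and 6.85 in the 8 TFoxp3- arrays, Cd4 was between 6.98 and 10.29 in all arrays, and all 9 measured T cell markers were above the median of every array. Of 6 measured B cell markers, 3 to 5 were below the array median in the ex vivo arrays, with Ms4a1 at 2.94 to 4.36 and Pax5 at 3.78 to 4.44. Cd79b, a B cell receptor chain, lay between 8.02 and 9.07 in the ex vivo arrays of both subsets and between 3.77 and 7.22 in the activated arrays. H2-Ab1, an MHC class II chain, lay between 8.11 and 9.36 in ex vivo TFoxp3- arrays and at 6.08 or below elsewhere. Duplicate arrays correlated across genes at 0.980 to 0.992 ex vivo and at 0.887 to 0.945 after activation.

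Irf4 moved most among the 9 genes. Activation raised it in both subsets, and in TFoxp3- cells by far more than in TFoxp3+ cells. Batf fell with activation in TFoxp3+ cells and did not in TFoxp3- cells, and this difference passed its own test. After activation, TFoxp3+ cells held less Irf4, Batf and Tbx21 mRNA than TFoxp3- cells and more Maf mRNA, in both RNA fractions. The activated TFoxp3+ arrays had a narrower spread of values over genes than all others, with an interquartile range of 2.62 to 2.90 against 3.03 to 3.54, and their duplicates correlated least (0.887 and 0.888). The part of this in the differences between activated subsets was not tested. In bulk samples, fewer cells of a type and less RNA per cell cannot be told apart.

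Subset comparisons were called at an adjusted p under 0.15 and the others under 0.05, from limma with Benjamini-Hochberg adjustment over all 16475 genes. Of the 9 genes, 1 was called between the ex vivo subsets in cytosolic mRNA, where 4.64% of all genes were called. None was called in polysome-associated mRNA, where 3.87% of all genes were. After activation 4 of the 9 differed between subsets in cytosolic mRNA, against 26% of all genes. Of these 1 was higher and 3 were lower in TFoxp3+ cells, against 13.8% and 12.2% of all genes. In polysome-associated mRNA 6 of the 9 differed, against 32.4%, with 3 higher and 3 lower, against 18.7% and 13.7%. The duplicates of the subsets did not overlap for 6 of the 9 genes in cytosolic and 8 of the 9 in polysome-associated mRNA ex vivo, against 63.8% and 60.3% of all genes, and for 6 of the 9 in either fraction after activation, against 49.9% and 55.7%. With activation, 1 of the 9 changed in the cytosolic mRNA of TFoxp3- cells (26.1% of all genes) and 2 in their polysome-associated mRNA (30.6%). In TFoxp3+ cells 3 of the 9 changed in each fraction, against 31.4% of all genes in cytosolic and 29.3% in polysome-associated mRNA. The change with activation itself differed between the subsets for 2 of the 9 genes, Irf4 and Batf, in each fraction, against 2.07% and 2.58% of all genes. The counts for activation are thus near or below the share of all genes, and those between activated subsets and between the responses lie above it, over no more than 9 genes. After activation the 9 had a median absolute subset difference of 0.99 (cytosolic) and 1.17 (polysome-associated), against 0.47 and 0.53 over all genes.

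**Figure D1:**
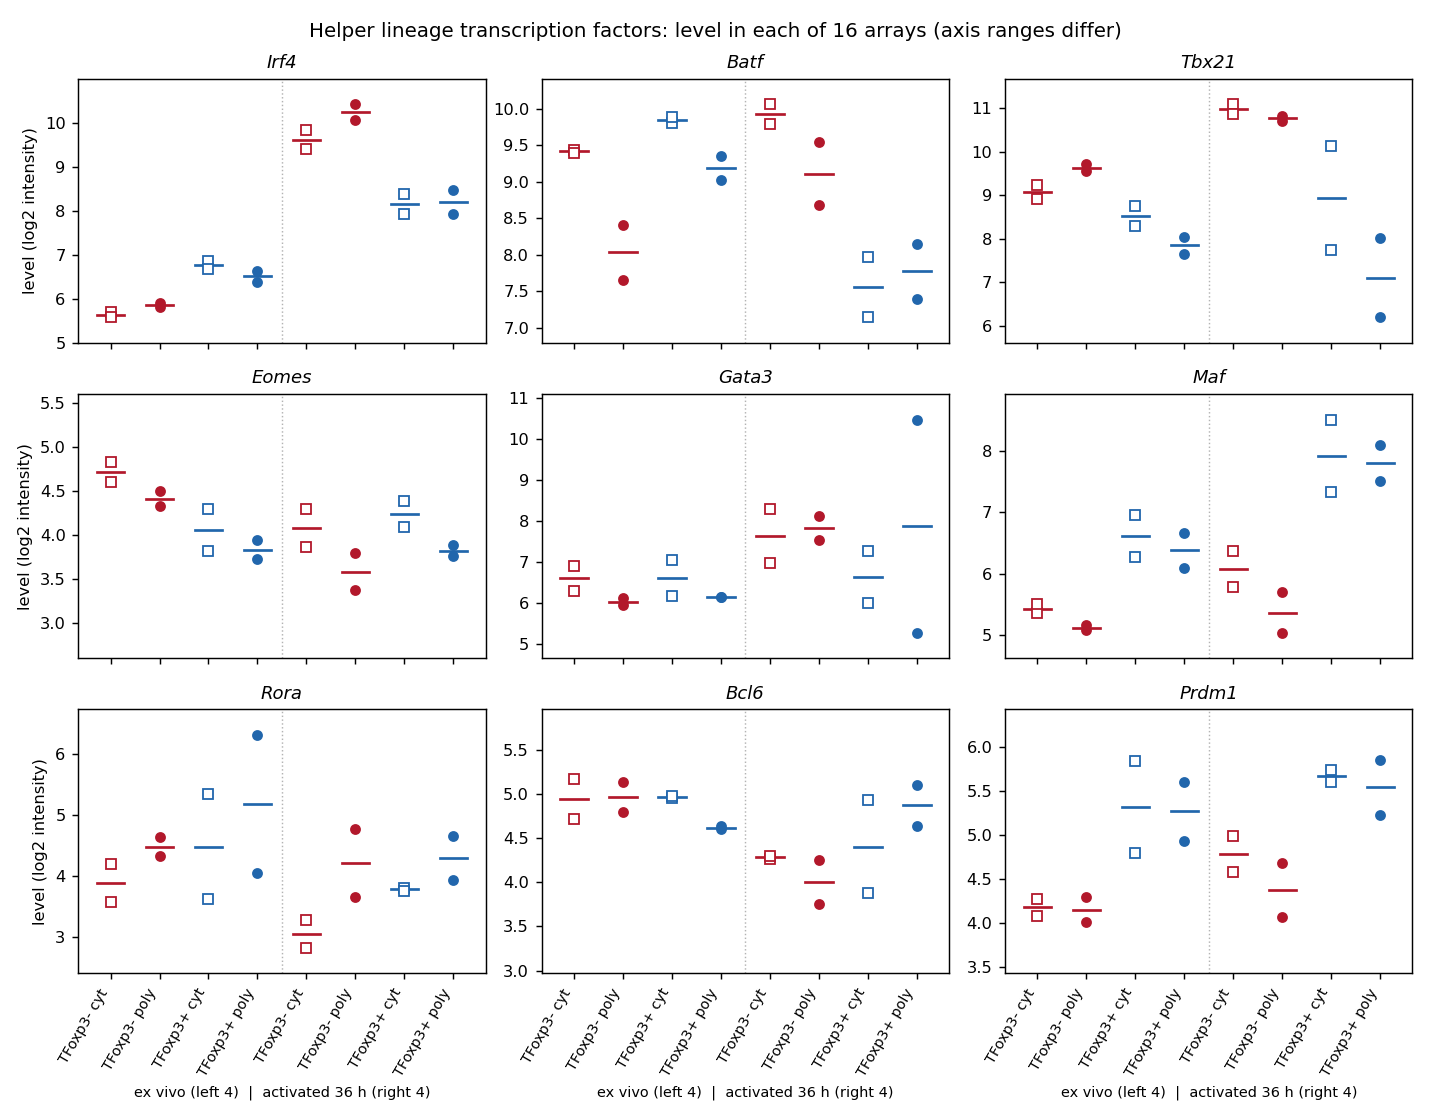
Level (log2 intensity, vertical axis, with ranges that differ between panels) of each of the 9 genes in each of the 16 arrays. Squares are cytosolic and circles polysome-associated mRNA, red is TFoxp3- and blue TFoxp3+, the left 4 groups are ex vivo and the right 4 activated, and bars are group means. Irf4 is highest in the activated TFoxp3- arrays, at 9.39 to 10.41, and the Gata3 duplicates of activated TFoxp3+ polysome-associated mRNA lie apart, at 5.28 and 10.48.

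Irf4 encodes an interferon regulatory factor that is induced in proportion to the strength of T cell receptor signalling. Ex vivo its cytosolic level was 5.69 and 5.57 in TFoxp3- cells and 6.86 and 6.68 in TFoxp3+ cells. Its polysome-associated level was 5.82 and 5.91 in the former and 6.39 and 6.64 in the latter. Every ex vivo TFoxp3+ array was thus above every ex vivo TFoxp3- array. After activation the cytosolic level reached 9.39 and 9.84 in TFoxp3- cells and 7.92 and 8.39 in TFoxp3+ cells. On polysomes it reached 10.41 and 10.06 in TFoxp3- cells and 8.48 and 7.92 in TFoxp3+ cells. The order of the subsets had turned, with every activated TFoxp3+ array below every activated TFoxp3- array. Over the 8 groups the means ran from 5.63 in ex vivo TFoxp3- cytosolic to 10.23 in activated TFoxp3- polysome-associated mRNA, a 24.3-fold range. Neighbours in that order overlapped only between the 2 fractions of activated TFoxp3+ cells.

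In TFoxp3- cells Irf4 rose by 3.98 (SE 0.26, 15.8-fold, limma adjusted p = 6.2e-06) in cytosolic and by 4.37 (20.7-fold, adjusted p = 1.9e-06) in polysome-associated mRNA. In TFoxp3+ cells it rose by 1.38 (2.61-fold, adjusted p = 0.00291) and by 1.69 (3.22-fold, adjusted p = 0.000969). The rise of TFoxp3+ minus that of TFoxp3- cells was -2.60 (95% interval -3.42 to -1.77, adjusted p = 0.00827) in cytosolic mRNA. It was -2.68 (-3.51 to -1.86, adjusted p = 0.00759) in polysome-associated mRNA. Between subsets ex vivo, cytosolic Irf4 was 2.20-fold higher in TFoxp3+ cells (adjusted p = 0.0637), and the polysome difference of 0.65 was not called (adjusted p = 0.336). After activation it was 2.75-fold lower in TFoxp3+ cells in cytosolic (adjusted p = 0.0068) and 4.10-fold lower in polysome-associated mRNA (adjusted p = 0.00101). The ex vivo call was lost without array 1, 3, 5 or 7, at an adjusted p of 0.229 to 0.371 and a difference of 1.05 to 1.22. The cytosolic response difference without array 1 was -2.51 (adjusted p = 0.0562).

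Batf encodes a leucine zipper protein that pairs with Jun proteins and binds DNA together with Irf4. Its cytosolic level ex vivo was 9.44 and 9.39 in TFoxp3- cells and 9.80 and 9.89 in TFoxp3+ cells. The polysome-associated level was 8.41 and 7.66 in TFoxp3- cells and 9.35 and 9.02 in TFoxp3+ cells. Ex vivo, therefore, Batf was the higher in the TFoxp3+ arrays of both fractions, with no overlap. In activated cells the cytosolic level was 10.06 and 9.79 in TFoxp3- cells but 7.97 and 7.14 in TFoxp3+ cells. The polysome-associated level was 9.54 and 8.68 against 7.39 and 8.15. Activated TFoxp3+ arrays were thus all below the activated TFoxp3- arrays of their fraction. The group means ran from 9.93 in activated TFoxp3- to 7.56 in activated TFoxp3+ cytosolic mRNA, a 5.17-fold range. Neighbours overlapped at the top (activated TFoxp3- and ex vivo TFoxp3+ cytosolic mRNA), in the middle (ex vivo TFoxp3+ and activated TFoxp3- polysome-associated mRNA) and among the 3 lowest groups, which were both activated TFoxp3+ groups and ex vivo TFoxp3- polysome-associated mRNA.

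In TFoxp3+ cells Batf fell by 2.29 (SE 0.39, 4.88-fold, limma adjusted p = 0.00155) in cytosolic mRNA and by 1.42 (2.67-fold, adjusted p = 0.0194) in polysome-associated mRNA. In TFoxp3- cells the differences were 0.51 (adjusted p = 0.366) and 1.08 (adjusted p = 0.0583), neither called. The response of TFoxp3+ minus that of TFoxp3- cells was -2.80 (95% interval -4.01 to -1.58, adjusted p = 0.0286) in cytosolic mRNA. It was -2.49 (-3.71 to -1.28, adjusted p = 0.0409) in polysome-associated mRNA. Activated TFoxp3+ cells held 5.17-fold less cytosolic (adjusted p = 0.00454) and 2.53-fold less polysome-associated Batf mRNA (adjusted p = 0.0409) than activated TFoxp3- cells. The ex vivo differences, 0.43 and 1.15, were not called (adjusted p = 0.749 and 0.219). The cytosolic fall and the cytosolic difference between activated subsets were called in every alternative run. The polysome fall was lost without array 2, 6 or 14 (adjusted p of 0.0557 to 0.117), and the polysome difference between activated subsets without array 10 or 14 (-0.91 and -0.96, adjusted p = 0.205 and 0.177). The response difference was lost without any of arrays 1, 3, 5, 7, 9 and 11 in cytosolic (adjusted p of 0.0512 to 0.12) and without any of arrays 1 to 8, 10 and 14 in polysome-associated mRNA (0.0652 to 0.169), with values from -2.06 to -2.93.

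The start regions of Irf4, Batf and Tbx21 are printed because these 3 genes were the ones lower in activated TFoxp3+ cells in both fractions. That of Prdm1, which was higher in their polysome-associated mRNA, is set beside them. Bcl6 was called higher there too, and its windows are not printed. Each runs from 250 bases before to 50 bases after the RefSeq transcription start (GRCm38.p6), 5′ to 3′ along the gene. RefSeq windows were at hand for 8 of the 9 genes, and Maf is named only. Capitals mark matches to the letters of 9 motifs, searched on both strands, where N is any base. The AP-1 letters bound by Batf with Jun are TGANTCA. The related CRE letters are TGACGTCA, and those of STAT factors are TTCNNNGAA. The IRF motif searched is GAAA followed by GAAA after a gap of 2 bases. The forkhead letters, the kind that Foxp3 binds, are GTAAACA. The GATA letters are AGATAA, and the T-box letters AGGTGTGA. The NF-kB motif is GGGA and TTTCC with 1 base between them. Those of NFAT, which is switched on by calcium, are TGGAAA.
Irf4 (chr13:30748983-30749282, plus strand): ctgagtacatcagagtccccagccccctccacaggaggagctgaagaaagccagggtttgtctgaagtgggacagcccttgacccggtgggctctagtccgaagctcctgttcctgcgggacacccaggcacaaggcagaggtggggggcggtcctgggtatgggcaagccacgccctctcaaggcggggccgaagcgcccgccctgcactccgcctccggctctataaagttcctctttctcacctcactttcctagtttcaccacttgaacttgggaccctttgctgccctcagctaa
Batf (chr12:85686470-85686769, plus strand): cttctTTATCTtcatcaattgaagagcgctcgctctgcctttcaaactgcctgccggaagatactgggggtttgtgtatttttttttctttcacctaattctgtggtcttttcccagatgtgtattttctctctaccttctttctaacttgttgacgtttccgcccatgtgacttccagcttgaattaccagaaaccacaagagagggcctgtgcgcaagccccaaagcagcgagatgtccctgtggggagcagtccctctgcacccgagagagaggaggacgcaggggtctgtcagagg
Tbx21 (chr11:97115282-97115581, minus strand): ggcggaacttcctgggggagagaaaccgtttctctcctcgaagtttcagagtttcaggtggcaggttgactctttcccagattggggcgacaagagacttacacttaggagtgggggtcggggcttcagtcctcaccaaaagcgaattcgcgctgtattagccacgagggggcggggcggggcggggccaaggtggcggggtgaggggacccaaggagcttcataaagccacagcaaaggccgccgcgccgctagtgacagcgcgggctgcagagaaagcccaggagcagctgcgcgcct
Prdm1 (chr10:44458699-44458998, minus strand): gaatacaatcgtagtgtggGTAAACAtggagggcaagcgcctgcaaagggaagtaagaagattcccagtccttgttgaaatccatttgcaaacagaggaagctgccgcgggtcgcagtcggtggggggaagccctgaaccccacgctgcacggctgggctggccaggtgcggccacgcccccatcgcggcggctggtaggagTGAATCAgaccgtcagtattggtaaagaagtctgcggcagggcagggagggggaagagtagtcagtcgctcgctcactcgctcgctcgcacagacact
The Irf4 and Tbx21 windows hold none of these letters. The Batf window holds the GATA letters on its other strand (TTATCT, at -245 to -240 from the start site). The Prdm1 window holds the AP-1 letters (TGAATCA, at -48 to -42) and the forkhead letters (GTAAACA, at -231 to -225). The Bcl6 windows, which are not printed, hold the STAT and the NFAT letters. Of 32851 windows of this length, 7.81% hold the AP-1, 11.2% the GATA and 3.65% the forkhead letters. The STAT letters are in 8.3% and the NFAT letters in 21.4%. No contrast between higher and lower genes was tested. A match is a description of the letters and no sign of binding.

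Tbx21 encodes T-bet, the T-box factor that switches on interferon-gamma and the receptor Cxcr3. Ex vivo its cytosolic level was 9.24 and 8.92 in TFoxp3- cells and 8.75 and 8.29 in TFoxp3+ cells. On polysomes it was 9.56 and 9.71 in TFoxp3- cells and 8.05 and 7.64 in TFoxp3+ cells. The TFoxp3+ arrays were the lower in both fractions, with no overlap. Activated TFoxp3- cells held the highest levels, 11.09 and 10.87 in cytosolic and 10.83 and 10.70 in polysome-associated mRNA. The activated TFoxp3+ duplicates lay far apart, at 7.73 and 10.14 in cytosolic (5.32-fold) and at 8.01 and 6.19 in polysome-associated mRNA (3.53-fold). They were nevertheless all below the activated TFoxp3- arrays. The group means spanned 3.88, from 10.98 and 10.76 in activated TFoxp3- cells through 9.63 in ex vivo TFoxp3- polysome-associated mRNA to 7.10 in activated TFoxp3+ polysome-associated mRNA. Neighbours overlapped from ex vivo TFoxp3- cytosolic (9.08) over activated TFoxp3+ (8.94) to ex vivo TFoxp3+ cytosolic mRNA (8.52), and between the lowest pair.

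Between activated subsets Tbx21 was 12.7-fold lower in TFoxp3+ cells in polysome-associated mRNA (difference -3.66, 95% interval -5.18 to -2.15, limma adjusted p = 0.00666), and this was called in every alternative run. In cytosolic mRNA the difference was -2.04 (adjusted p = 0.0783), which was lost without array 13 (-0.83, adjusted p = 0.391) or array 9 (-1.93, adjusted p = 0.237) and by cyclic loess (-1.53, adjusted p = 0.212). Ex vivo the differences of -0.56 and -1.79 were not called (adjusted p = 0.828 and 0.298). When only the ex vivo arrays were fitted, an alternative chosen after the data were seen, the polysome difference had an adjusted p of 0.00312. The change with activation in TFoxp3- cells, 1.89 in cytosolic (adjusted p = 0.0652) and 1.13 in polysome-associated mRNA (adjusted p = 0.248), was not called. In TFoxp3+ cells it was 0.42 and -0.75 (adjusted p = 0.677 and 0.447). Some alternatives did call the change in TFoxp3- cells. With only the groups compared, limma gave an adjusted p of 0.00961 in cytosolic and 0.0155 in polysome-associated mRNA. The cytosolic change was also called with array weights (adjusted p = 0.0124), a filter at the median gene mean (0.0471) and cyclic loess (2.17, adjusted p = 0.0412).

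Eomes encodes the other T-box factor of T cells, known best from cytotoxic cells. It was below the median of its array in all 16 arrays. Ex vivo, TFoxp3- cells had 4.82 and 4.60 in cytosolic and 4.49 and 4.33 in polysome-associated mRNA, and TFoxp3+ cells 3.81 and 4.29 and then 3.94 and 3.72. After activation the levels were 4.29 and 3.86 and then 3.37 and 3.79 in TFoxp3- cells, and 4.38 and 4.09 and then 3.76 and 3.88 in TFoxp3+ cells. The group means ran from 4.71 in ex vivo TFoxp3- cytosolic mRNA, which stood clear of the next, to 3.58 in activated TFoxp3- polysome-associated mRNA, and all other neighbours overlapped. In TFoxp3- cells polysome-associated Eomes fell by 0.83 (SE 0.25, limma adjusted p = 0.0274), a call lost without array 4, 8 or 10 (adjusted p of 0.0796 to 0.167). The cytosolic difference was -0.64 (adjusted p = 0.0845). In TFoxp3+ cells the differences were 0.18 and -0.01 (adjusted p = 0.61 and 0.975). The difference between the responses, 0.82 in each fraction, was not called (adjusted p = 0.293 and 0.275). Iglc2, an immunoglobulin light chain gene, also had its highest levels in ex vivo TFoxp3- cells, 6.84 and 7.03 in cytosolic and 6.37 and 6.38 in polysome-associated mRNA, against 3.36 to 5.51 elsewhere. Tyrobp, an adaptor of NK and myeloid cells and 1 of 7 measured NK cell markers, was at 6.18 to 8.65 there and at 3.87 to 6.43 elsewhere. Klrb1c, another of the 7, was not higher there, at 4.02 to 4.22 against 4.06 to 5.37 elsewhere. Of the 7 markers, 4 or 5 were below the array median in ex vivo TFoxp3- arrays and 5 or 6 in the other arrays. Ncr1, the defining NK cell receptor, stayed between 2.89 and 3.34 in every array. The part of such cells in the Eomes level was not tested.

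Gata3 encodes the zinc finger factor that all CD4+ T cells need and that Th2 cells raise further. Ex vivo it was at 6.91 and 6.30 in cytosolic and 6.12 and 5.94 in polysome-associated mRNA of TFoxp3- cells. In TFoxp3+ cells it was at 6.17 and 7.06 and at 6.16 and 6.14. Ex vivo the subsets lay together, and they overlapped in cytosolic mRNA. Activated TFoxp3- cells had 8.28 and 6.99 in cytosolic and 8.12 and 7.53 in polysome-associated mRNA, above all ex vivo TFoxp3- arrays. Activated TFoxp3+ cells had 7.28 and 6.00 in cytosolic mRNA, and 10.48 on array 14 but 5.28 on array 16 in polysome-associated mRNA. These last duplicates differed 36.8-fold. The group means ran from 7.88 in activated TFoxp3+ to 6.03 in ex vivo TFoxp3- polysome-associated mRNA, and the highest 6 groups overlapped from each to the next.

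No difference in Gata3 was called in any of the 18 comparisons. Between activated subsets the polysome difference was 0.05, with a 95% interval from -2.64 to 2.74. It was -2.55 without array 14 and 2.65 without array 16 (limma adjusted p = 0.025 and 0.0202), so its sign rests on which of the 2 arrays is kept. The change with activation in TFoxp3- cells was 1.03 in cytosolic (adjusted p = 0.573) and 1.80 in polysome-associated mRNA (adjusted p = 0.303). The latter was called without array 14 or without array 16 (adjusted p = 0.022 in both), with the value itself unmoved. In TFoxp3+ cells the polysome change was 1.73 (adjusted p = 0.316), and without array 16 it was 4.33 (adjusted p = 0.001).

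Maf encodes c-Maf, a leucine zipper factor that drives interleukin 4 in Th2 cells and interleukin 10 in several T cell types. Ex vivo it was at 5.36 and 5.50 in cytosolic and 5.16 and 5.08 in polysome-associated mRNA of TFoxp3- cells. In TFoxp3+ cells it was at 6.27 and 6.96 and at 6.10 and 6.66. After activation it was at 5.79 and 6.38 and at 5.04 and 5.70 in TFoxp3- cells, and at 7.33 and 8.51 and at 7.50 and 8.10 in TFoxp3+ cells. In both states and both fractions the TFoxp3+ arrays were above the TFoxp3- arrays, with no overlap. The 4 TFoxp3+ groups had the 4 highest means, 7.92 and 7.80 when activated and 6.62 and 6.38 ex vivo, each pair overlapping, and the lowest was 5.12 in ex vivo TFoxp3- polysome-associated mRNA. The 10 measured myeloid cell markers had a mean level of 4.78 to 5.12 in activated TFoxp3+ arrays and 3.94 to 4.42 in activated TFoxp3- arrays. Ex vivo their mean level was 4.22 to 4.57. The part of such cells in the Maf level was not tested.

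After activation Maf was 3.57-fold higher in TFoxp3+ cells in cytosolic (difference 1.84, SE 0.42, limma adjusted p = 0.0199) and 5.40-fold higher in polysome-associated mRNA (2.43, adjusted p = 0.00472). The latter was called in every alternative run. Ex vivo the differences were 1.19 and 1.26 (adjusted p = 0.241 and 0.218), and they were called when only the ex vivo arrays were fitted (adjusted p = 0.0233 and 0.0214). In TFoxp3+ cells Maf rose with activation by 1.30 in cytosolic (adjusted p = 0.0378) and 1.42 in polysome-associated mRNA (adjusted p = 0.0276). In TFoxp3- cells the differences of 0.65 and 0.24 were not called (adjusted p = 0.286 and 0.711), and neither was the difference between the responses, 0.65 and 1.18 (adjusted p = 0.691 and 0.362). The cytosolic rise was lost without any of arrays 1, 3, 4, 5, 7, 8 and 15, lowest without array 15 (0.71, adjusted p = 0.248). The polysome rise was lost without array 2, 6 or 16 (1.12 to 1.70, adjusted p of 0.0522 to 0.169).

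Rora encodes a nuclear receptor that shares the Th17 programme with its relative RORgamma. It was below the array median in 14 of 16 arrays. In ex vivo TFoxp3- cells it was at 3.59 and 4.21 in cytosolic and 4.64 and 4.33 in polysome-associated mRNA. In ex vivo TFoxp3+ cells array 5 had 5.33 against 3.63 on array 1, and array 6 had 6.31 against 4.05 on array 2. Activated TFoxp3- cells had 2.83 and 3.28 and then 3.66 and 4.76, and activated TFoxp3+ cells 3.81 and 3.76 and then 4.65 and 3.93. The 2 high arrays are thus both of ex vivo TFoxp3+ cells and apart from their duplicates. The group means ran from 5.18 in ex vivo TFoxp3+ polysome-associated to 3.05 in activated TFoxp3- cytosolic mRNA, and only this lowest group stood clear of its neighbour. No comparison of Rora was called, and the subset differences ran from 0.08 to 0.73 (limma adjusted p of 0.536 to 0.948).

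Bcl6 and Prdm1 encode repressors that hold each other down, Bcl6 in follicular helper cells and Blimp-1, the product of Prdm1, in effector cells. Bcl6 was low, below the array median in 12 of 16 arrays. Ex vivo it was at 5.18 and 4.72 and then 5.14 and 4.80 in cytosolic and polysome-associated mRNA of TFoxp3- cells, and at 4.96 and 4.99 and then 4.60 and 4.65 in TFoxp3+ cells. After activation TFoxp3- cells had 4.27 and 4.30 and then 4.26 and 3.76, and TFoxp3+ cells 4.93 and 3.88 and then 5.11 and 4.64. The polysome arrays of activated TFoxp3- cells lay below all 6 other polysome arrays. The group means ran from 4.98 in ex vivo TFoxp3+ cytosolic to 4.01 in activated TFoxp3- polysome-associated mRNA, and all neighbours but the lowest pair overlapped. Activated TFoxp3+ cells held 1.83-fold more polysome-associated Bcl6 mRNA than activated TFoxp3- cells (difference 0.87, limma adjusted p = 0.102). The call was lost without array 12 (0.62, adjusted p = 0.361) or array 14 (0.63, adjusted p = 0.322), and also when arrays were centred on their medians or normalized by cyclic loess. The change with activation in TFoxp3- cells was -0.66 in cytosolic (adjusted p = 0.174) and -0.96 in polysome-associated mRNA (adjusted p = 0.0504).

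Prdm1 was higher in the TFoxp3+ arrays in each setting. Ex vivo it was at 4.28 and 4.09 in cytosolic and 4.01 and 4.30 in polysome-associated mRNA of TFoxp3- cells, against 4.79 and 5.84 and then 4.93 and 5.60 in TFoxp3+ cells. After activation it was at 4.98 and 4.59 and then 4.07 and 4.68 in TFoxp3- cells, against 5.74 and 5.60 and then 5.85 and 5.23 in TFoxp3+ cells. The subsets did not overlap in any of these 4 comparisons. The group means ran from 5.67 in activated TFoxp3+ cytosolic to 4.15 in ex vivo TFoxp3- polysome-associated mRNA, the 4 TFoxp3+ groups had the 4 highest, and every neighbour in this order overlapped with the next. The polysome difference after activation was 1.17 (2.24-fold, limma adjusted p = 0.0605) and was called. It was lost without array 10 or 14 (0.86 in both, adjusted p = 0.246 and 0.23) and by cyclic loess (0.90, adjusted p = 0.157). The cytosolic difference of 0.88 was not called (adjusted p = 0.154), and neither were the ex vivo ones of 1.13 and 1.12 (adjusted p = 0.204 and 0.224). Fitted on the ex vivo arrays alone, these last were called (adjusted p = 0.0696 and 0.0751). No change of Prdm1 with activation was called. Irf4 and Prdm1 also mark plasma cells. The 4 other measured plasma cell markers had a mean level of 4.99 to 5.86 over all arrays, and 1 of them, Tnfrsf17, differed between subsets, with more in TFoxp3+ cells in activated cytosolic mRNA (0.77, limma adjusted p = 0.108). The part of such cells in the levels of Irf4 and Prdm1 was not tested.

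**Figure D2:**
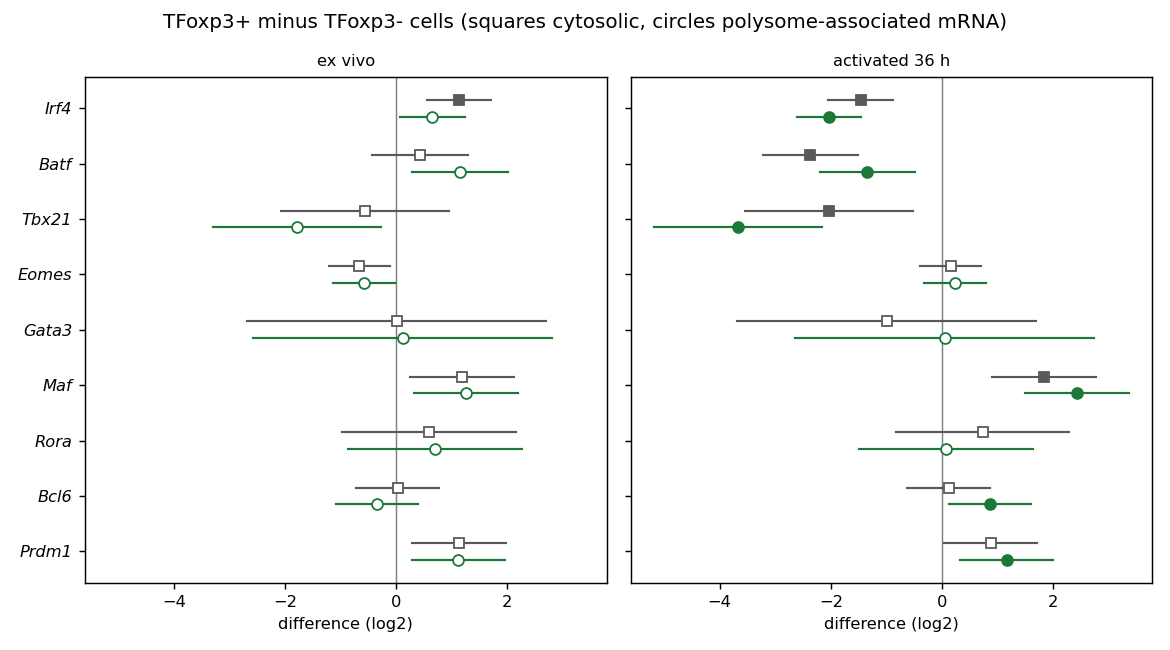
TFoxp3+ minus TFoxp3- cells (log2 difference, horizontal axis) for each gene, ex vivo on the left and activated on the right. Squares are cytosolic and circles polysome-associated mRNA, lines are 95% intervals and filled symbols passed an adjusted p of 0.15. Irf4 and Batf lie to the right of 0 ex vivo and to the left after activation, and Maf lies to the right in both, at 1.19 to 2.43.

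**Figure D3:**
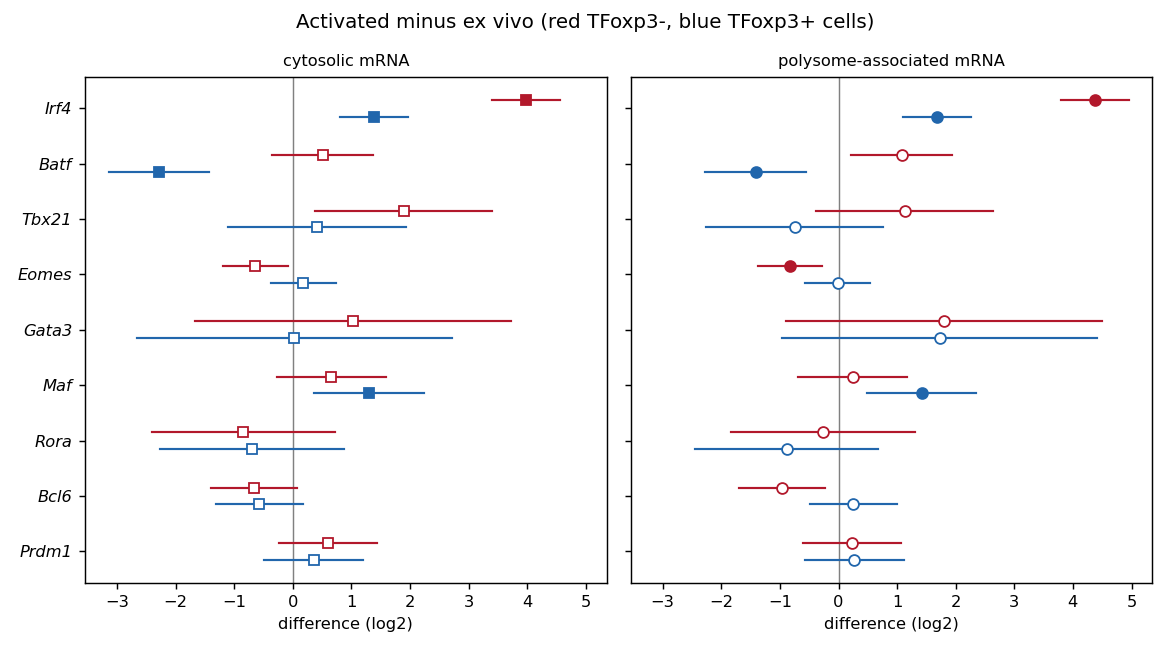
Activated minus ex vivo (log2 difference, horizontal axis) for each gene in cytosolic (left) and polysome-associated mRNA (right), red for TFoxp3- and blue for TFoxp3+ cells. Lines are 95% intervals and filled symbols passed an adjusted p of 0.05. The subsets part for Irf4, at 3.98 and 1.38 in cytosolic mRNA, and for Batf, at 0.51 and -2.29.

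Ex vivo arrays agreed more closely than activated ones, and this bears on every call, in ex vivo and in activated cells. The median SD between duplicates was 0.119 to 0.161 in the ex vivo groups and 0.240 to 0.330 in the activated groups, while the fit used here gives all 8 groups the same spread. With the arrays of each state fitted alone, 5 of the 9 genes were called between ex vivo subsets in cytosolic mRNA, against 28.5% of all genes. In polysome-associated mRNA 6 were called, against 28.6% of all genes. The ones higher in TFoxp3+ cells were Irf4, Maf and Prdm1 and, on polysomes, Batf, and the lower ones Tbx21 and Eomes. After activation this fit called 2 of the 9 in cytosolic (4.87% of all genes) and 3 in polysome-associated mRNA (8.31%). The fit with a shared spread had called 4 and 6. The calls lost were Maf and Tbx21 in cytosolic mRNA and Batf, Bcl6 and Prdm1 on polysomes.

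Whether an mRNA was richer on polysomes than in the cytosol, relative to other genes, was asked by setting polysome-associated against cytosolic mRNA. The normalized arrays had medians of 4.84 to 5.06, so a shift common to all mRNAs could not be seen. None of the 9 genes was called in any of the 4 groups of cells by limma, where 0.0607% and 0.0364% of all genes were called in ex vivo TFoxp3- and TFoxp3+ cells and 3.88% and 4.66% in activated ones. Batf in ex vivo TFoxp3- cells had an unadjusted limma p under 0.05 (difference -1.38, adjusted p = 0.519). So had Irf4 in activated TFoxp3- cells (0.62, adjusted p = 0.241) and Tbx21 in activated TFoxp3+ cells (-1.84, adjusted p = 0.157). The share of all genes at that cut is not given here. Batf was called when only the ex vivo arrays were fitted (adjusted p = 0.0449), where 1.57% of all genes were called. Tbx21 was called without array 13 (-3.04, adjusted p = 0.0135) or array 14 (-2.75, adjusted p = 0.045). Gata3 was called in activated TFoxp3+ cells without array 16 (3.83, adjusted p = 0.00807).

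Differences of this measure between subsets or states, the study's question of differential translation, were called for none of the 9 genes by limma, and none had an unadjusted p under 0.05. Of all genes 0% were called between subsets ex vivo, 7.48% between subsets after activation, 0.158% with activation in TFoxp3- cells and 0.279% in TFoxp3+ cells. An analysis of covariance, in which polysome-associated mRNA is regressed on cytosolic mRNA, called 6 of the 36 differences when consecutive arrays were taken as pairs, and 3 to 6 over the 16 possible pairings. Of all genes it called 0.388% between subsets ex vivo, 18.1% between subsets after activation, 7.69% with activation in TFoxp3- and 4.64% in TFoxp3+ cells. In it Tbx21 was lower in activated TFoxp3+ cells under all 16 pairings (-5.20 to -2.13) and Bcl6 higher under all 16 (0.81 to 0.93). In the same comparison Maf was called under 10 of the 16 (1.21 to 3.65 over all of them), Prdm1 under 5 (0.44 to 1.90) and Irf4 under 4 (-3.52 to -0.55), consecutive arrays among them for Irf4 (-3.52, adjusted p = 0.0435). Between ex vivo subsets Tbx21 was called under 12 of the 16 (-2.21 to -1.37). With activation in TFoxp3- cells Tbx21 was called under 8 (-0.30 to 2.56) and Irf4 under 2 (0.33 to 8.41), and every other difference was called under 2 or fewer. The limma differences for the same comparison were -1.62 for Tbx21, 0.75 for Bcl6 and 0.60 for Maf (adjusted p = 0.447, 0.481 and 0.68). No label ties a cytosolic array to a polysome array, so none of the pairings is known to be the true one. The study kept only genes whose regression slope lay within set limits, and no such limit was set here. With consecutive pairs Tbx21 between activated subsets was at -5.06, beyond its polysome difference of -3.66, although its cytosolic difference was negative too (-2.04). Irf4 with activation in TFoxp3- cells was at 8.41, beyond its polysome rise of 4.37, although its cytosolic mRNA rose too (3.98). The slopes of both genes were thus negative with these pairs. Whether their calls would pass the study's limits was not tested.

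The genes around these factors were followed with 8 lists, described by counts and medians alone. Among 32 other regulators of helper lineages, 12 differed between activated subsets in polysome-associated mRNA, 7 higher and 5 lower in TFoxp3+ cells, near the 32.4% of all genes called there (18.7% higher and 13.7% lower), with a median difference of 0.32 against 0.20 over all genes. By smallest adjusted p they were led by Foxp3, then Ikzf2, which encodes the Ikaros family factor Helios (higher by 3.96), Bhlhe40, which supports Th1 cytokines (-2.59), and Klf2, a factor of resting T cells (3.35). In cytosolic mRNA the response differed between subsets for 4 of the 32, 1 higher and 3 lower, against 2.07% of all genes. On polysomes it differed for 1 of the 32, near the 2.58% of all genes called there. This was Bhlhe40 (-4.57, limma adjusted p = 0.0153). Its level ex vivo was 6.28 and 6.59 in TFoxp3- and 7.67 and 9.18 in TFoxp3+ cells, and after activation 9.07 to 9.37 and 6.61 to 6.65, so the order of the subsets turned as it did for Irf4.

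Of the 21 partners of Batf and Irf4 (Jun, Fos, Irf and NFAT proteins and their kin), 9 differed between activated subsets on polysomes, 5 higher and 4 lower in TFoxp3+ cells (median 0.45), against 32.4% of all genes. Atf3, a stress-induced leucine zipper factor, was lower (-3.25, adjusted p = 0.00427), as was Irf1 (-1.08, adjusted p = 0.0204), while Irf9 was higher (1.54, adjusted p = 0.0152). With activation Junb, a leucine zipper partner of Batf, fell by 3.44 in TFoxp3- and fell by 2.99 in TFoxp3+ cells on polysomes. Irf7, an interferon pathway factor, had polysome differences of -3.88 and -2.50, both called. In cytosolic mRNA the list had 1 gene higher and 5 lower in activated TFoxp3+ cells (median -0.34), against 13.8% and 12.2% of all genes.

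Of 18 genes turned on by T-bet and Eomes, 3 were higher and 7 lower in activated TFoxp3+ cells in cytosolic mRNA (median -0.66 against 0.13 over all genes), where 13.8% of all genes were higher and 12.2% lower. In polysome-associated mRNA 5 were higher and 4 lower (median 0.04), where 18.7% and 13.7% of all genes were. Ccl4, a chemokine gene, was lower on polysomes (-1.23, adjusted p = 0.0044), whereas Gzmb, the cytotoxic protease granzyme B, was higher by 1.75 (adjusted p = 0.0013) and Il2rb, an IL-2 receptor chain, by 1.55 (adjusted p = 0.0105). Ifng, which encodes interferon-gamma and, like Cxcr3, is named after its values were seen, was at 10.58 and 11.21 on polysomes of activated TFoxp3- cells and at 4.76 and 9.30 in activated TFoxp3+ cells. Cxcr3 was high ex vivo, at 11.18 to 12.75, and at 5.85 to 9.45 after activation.

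The 16 genes tied to Gata3 and Maf gave 6 higher and 3 lower in activated TFoxp3+ cells on polysomes (median 0.40), in the comparison that called 18.7% of all genes higher and 13.7% lower. The counts of the following lists belong to the same comparison. Il4, the defining Th2 cytokine, was lower (-4.37, adjusted p = 4.63e-05), with 8.97 and 9.87 in activated TFoxp3- and 4.78 and 5.33 in activated TFoxp3+ cells. Ccr8, a chemokine receptor of Th2 and regulatory cells, was higher by 2.12 (adjusted p = 0.00425). Il10, picked after its values were seen, was at 7.06 to 7.72 on polysomes of activated TFoxp3+ cells and at 3.87 and 6.16 in TFoxp3- cells. Of the 14 genes tied to the ROR factors, 5 were higher and 1 lower (median 0.54). Il21, a cytokine of Th17 and follicular cells, was lower (-2.09), while Furin, a protease that matures TGF-beta, was higher by 2.44 and Il6st, the shared IL-6 receptor chain, by 2.36. Of 19 genes of the Bcl6 programme, 4 were higher and 8 lower (median 0.09). Icos, the costimulatory receptor of follicular and regulatory cells, was higher by 2.35, and Tnfsf8, a TNF family ligand, lower (-3.70, adjusted p = 0.000246).

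The 18 effector regulatory T cell genes linked to Irf4, Batf and Prdm1 were listed from general knowledge. Whether each is a target of these factors was not tested. The list was written with earlier results of these data known. It holds Ctla4, Il2ra and Tnfrsf18, which the study names as known to differ between the subsets. Higher levels of the list in cells sorted for Foxp3 are thus no test of these factors. Of the list, 15 were higher in ex vivo TFoxp3+ cells in each fraction, with medians of 3.06 and 3.04 against 0.10 and 0.09 over all genes, of which 4.64% and 3.87% were called. After activation 13 were higher in each fraction (medians 1.85 and 1.94), against 13.8% and 18.7% of all genes, and 1 was lower on polysomes. The 3 smallest adjusted p on polysomes ex vivo were those of Itgae, the integrin chain CD103 (6.05), Tnfrsf4, or OX40 (3.37), and Tnfrsf9, or 4-1BB (3.79). The polysome response differed between subsets for 2 genes of this list, against 2.58% of all genes. Named after their values were seen, they were Tnfrsf4 (-2.44, adjusted p = 0.00458) and Il2ra, the IL-2 receptor chain CD25 (-2.89, adjusted p = 0.00759). The 11 genes of naive and resting T cells ran the other way ex vivo, with 7 lower in cytosolic and 6 in polysome-associated mRNA of TFoxp3+ cells and none higher (medians -1.91 and -2.20). In TFoxp3- cells 8 of these 11 fell with activation in each fraction, where 26.1% and 30.6% of all genes changed in either direction. In TFoxp3+ cells 2 rose and 3 fell in cytosolic mRNA, and 1 rose and 2 fell on polysomes, where 31.4% and 29.3% of all genes changed.

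**Figure D4:**
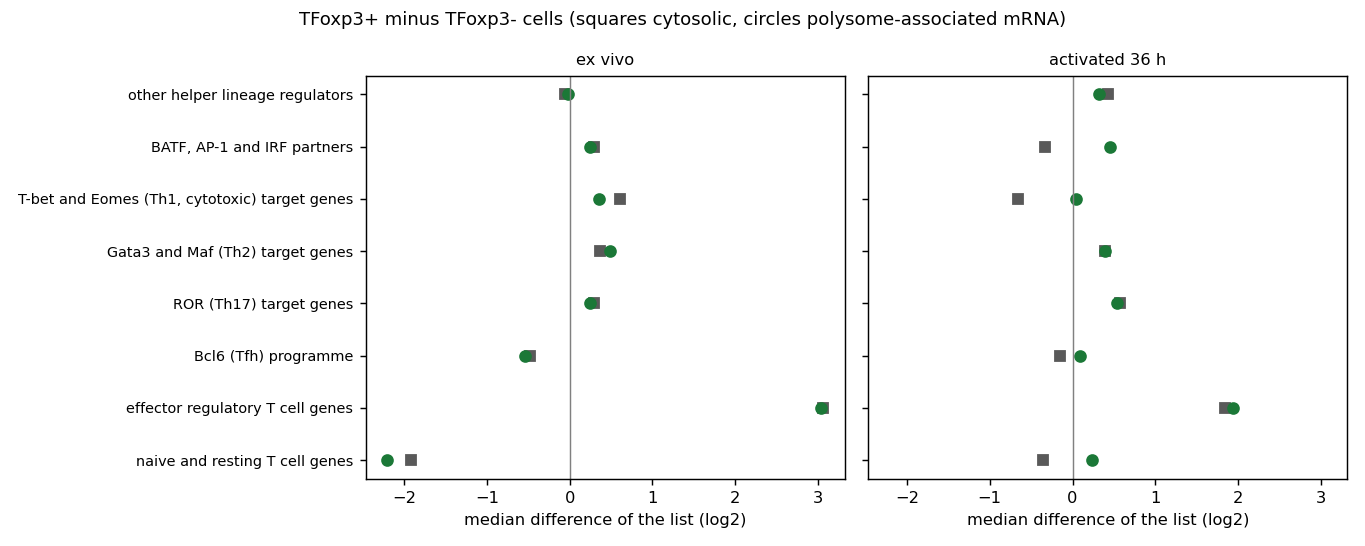
Median difference between TFoxp3+ and TFoxp3- cells (log2, horizontal axis) over the measured genes of each of 8 lists, ex vivo on the left and activated on the right. Squares are cytosolic and circles polysome-associated mRNA. The effector regulatory T cell list lies farthest to the right, at 3.06 and 3.04 ex vivo and at 1.85 and 1.94 after activation.

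The genes whose pattern was most like that of a factor were ranked by Pearson's r over the 8 group means, among 10960 genes whose means span at least 1. Prdm1 was followed most closely by Tnfrsf18, the regulatory T cell receptor GITR (r = 0.994), Hint2 (0.975) and Il10 (0.974). Maf was followed by Tnfrsf1b, a TNF receptor of regulatory T cells (0.995), Krt26 (0.987) and Galr3 (0.985). Irf4 had Pmvk, of the mevalonate pathway (0.995), Haus3, of the mitotic spindle (0.994), and Cdc45, of DNA replication (0.990). Tbx21 had Mrpl37 (0.988), H2-T24 (0.982) and Pdcd2l (0.974), and Batf had Ndufa12 (0.978), Cbx6 (0.968) and Sirt2 (0.966). Gata3 had Plscr1 (0.989), Snapin (0.982) and Kmt5a (0.978), and Eomes had Iglc2 (0.982), Cdr2 (0.970) and Dusp28 (0.947). Rora had the least close ones, Gbp7 (0.945), Cyp2b19 (0.931) and Pate5 (0.924), and the means of Bcl6 spanned less than 1. Among the 9 genes themselves Prdm1 and Maf were the most alike (0.946), then Irf4 and Gata3 (0.840), and Irf4 and Bcl6 the most opposed (-0.864). These are descriptions over 8 groups that share their array series. The highest Gata3 mean, 7.88 in activated TFoxp3+ polysome-associated mRNA, averages duplicates at 5.28 and 10.48. The likeness of Gata3 to other genes, Irf4 among them, thus rests in part on a level seen in neither array. The ex vivo TFoxp3+ means of Rora likewise average duplicates that were 3.26-fold (cytosolic) and 4.77-fold (polysome-associated) apart.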

How the data were processed

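Cytosolic and polysome-associated mRNA of sorted CD4+ T cells was measured on 16 Affymetrix arrays. The values are log2 intensities that the authors deposited after RMA (R package affy, probe sets redefined for Entrez genes), and they were used as given. No source used here states the RMA version or says if ex vivo and activated arrays were normalized together. The table holds 16539 features, and its 64 control probe sets were dropped. No background or detection values were used.

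Groups came from the sample labels. Comparisons were fitted with limma 3.58.1 (R 4.3.3), with 1 mean for each of the 8 groups over all 16 arrays (8 residual degrees of freedom) and two-sided moderated tests, adjusted by Benjamini-Hochberg over 16475 genes. Differences of polysome against cytosolic mRNA between subsets were called at 0.3 ex vivo and 0.15 after activation, and subset comparisons after activation at 0.15, as in the study's methods. The 0.15 was extended here to the ex vivo subset comparisons, and all others were called at 0.05. The study's anota-RVM was not run, and an analysis of covariance was tried in its place. Other alternatives were fits of fewer arrays, array weights, an intensity trend, a filter at the median gene mean, centring, cyclic loess and leaving out each array. The fits were tested on simulated data.

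The 9 members and all gene lists were chosen with earlier results of these data known. Named genes are the 9 members, Foxp3 and Cd4, up to 4 genes of each list by adjusted p, and the 3 genes most like each member whose group means span at least 1, without predicted genes and odorant or vomeronasal receptors. Genes named outside this rule are marked or are markers of other cells. Symbols came from the platform annotation, which names 15780 of the genes. Start regions are RefSeq's (GRCm38.p6), and the deposited values carry no genome build. Python 3.11.15, with pandas 2.3.3 and matplotlib 3.10.9, served for tables and plots.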

Additional observations from a re-analysis of the deposited data

Results flagged for a closer look

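The change with activation differed between the subsets for 2 genes by a test of that difference. For Irf4 it was -2.60 in cytosolic (limma adjusted p = 0.00827) and -2.68 in polysome-associated mRNA (adjusted p = 0.00759), since the rise was smaller in TFoxp3+ cells. For Batf it was -2.80 in cytosolic (adjusted p = 0.0286) and -2.49 in polysome-associated mRNA (adjusted p = 0.0409), where it fell in TFoxp3+ cells and the difference in TFoxp3- cells was not called. Activated TFoxp3+ and activated TFoxp3- cells were on separate array series, so subset and series cannot be told apart in these values. Groups of 2 arrays are too small for a check of single outlying arrays.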

How the results depend on the processing

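No paired analysis was possible because the array numbers run from 1 to 16 and no 2 groups share one, so a block by number could not be fitted. The pairs in the analysis of covariance were assumed. Over the alternatives, 11 called subset differences became 9 to 16 (9 to 14 without single arrays), and 9 called activation differences became 7 to 13, the same range as without single arrays. The 4 called response differences became 1 to 4, with 1 left without array 1 and 2 left without array 3, 5 or 7. Polysome against cytosolic mRNA went from 0 calls to 1 with array weights, to 1 with only the arrays of the state, and to 0 to 1 without single arrays (1 without array 13, 14 or 16). Differences of polysome against cytosolic mRNA went from 0 calls to 6 by analysis of covariance and to 0 to 2 without single arrays (2 without array 13 or 16). The results that turned were Gata3 between activated subsets on polysomes (0.05), -2.55 without array 14 and 2.65 without array 16 (limma adjusted p = 0.025 and 0.0202), and the change with activation of Tbx21 on polysomes given cytosolic mRNA in TFoxp3- cells, 2.42 by analysis of covariance with consecutive pairs (adjusted p = 0.0354) against -0.76. Over the 16 pairings the latter ran from -0.30 to 2.56 and was called under 8. With consecutive pairs the slope of Tbx21 was negative, and no limit on slopes was set. The cause was not tested.

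The called differences of Irf4 with activation, of Batf with activation and between activated subsets in cytosolic mRNA, and of Irf4, Maf and Tbx21 between activated subsets on polysomes kept their call in all alternatives run, as did the polysome response of Irf4. Of the 24 called differences, 11 were lost when only the groups compared were fitted (adjusted p of 0.0597 to 0.349). Between activated subsets these were Irf4, Maf and Tbx21 in cytosolic mRNA and Batf, Bcl6 and Prdm1 on polysomes, and the others were the polysome fall and response difference of Batf, both Maf rises and the Eomes fall. Array weights lost 8 (0.0578 to 0.332): Tbx21 in cytosolic mRNA, Batf, Bcl6 and Prdm1 on polysomes, the polysome fall and response difference of Batf, and both Maf rises. The fit of each state lost Maf and Tbx21 in cytosolic mRNA and Batf, Bcl6 and Prdm1 on polysomes (0.159 to 0.315). An intensity trend lost Irf4 ex vivo (0.154) and the polysome response difference of Batf (0.0527). Cyclic loess lost Tbx21 in cytosolic mRNA (0.212), Prdm1 (0.157), Bcl6 (0.316) and the polysome fall of Batf (0.0651), and centring lost Bcl6 (0.164) and the cytosolic Maf rise (0.0549). The fit of each state alone was chosen after seeing the data. It moved the number of genes called between subsets from 765 to 4692 (cytosolic) and 638 to 4705 (polysome) ex vivo and from 4279 to 803 and 5338 to 1369 after activation. Only the groups compared gave 5185, 3436, 490 and 855, and array weights 5326, 4103, 1368 and 1996. Analysis of covariance moved calls of the difference between polysome and cytosolic mRNA between activated subsets from 1232 to 2989. The filter at the median mean left 5 of the 9 genes. Centring and cyclic loess turned the sign of no called member, and over all genes they moved the share of higher calls between activated subsets on polysomes from 57.7% (median difference 0.20) to 44.7% (0.08) and 46.0% (0.03). In cytosolic mRNA centring moved it from 53.2% to 37.3% after activation and from 44.4% to 32.0% ex vivo, and cyclic loess moved that of the cytosolic response from 41.3% to 58.4%. With 2 arrays a group and no background values, it cannot be said whether low genes such as Eomes, Rora and Bcl6 were above background.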
